A study of Mus musculus with 170 samples.

Results

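Lungs of mice given the smoke particles of flaming peat were compared with lungs of mice given those of smoldering peat, 24 h after the particles entered the airways. The 12 lungs were chosen by their labels alone (lung, 24 h, treatment PeatFlame or PeatSmolder), 6 in each group, out of 170 libraries in the series, of which 140 were lungs and 70 were lungs of 24 h. All animals were female mice of the outbred CD1 stock, with no genetic change and no other agent named, and each library was 1 animal by its title. Each exposed animal received particulate matter at 2 mg/mL in 50 uL of saline by oropharyngeal aspiration, in which liquid placed at the back of the throat is breathed into the lungs. The mass of particles was therefore the same for both burn phases. The comparison asks what the burn phase of 1 fuel changes in lung transcripts a day later. Set beside these 12 lungs were 6 lungs of 24 h labelled Saline, 12 lungs of 4 h (6 for each peat phase) and the hearts of the same 12 animals. The sources used here do not give the animals' age or the hour of dosing and sampling.

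Flaming is hot burning with an open flame, and smoldering is slow, cooler burning without one, typical of peat in the ground, so that the smokes differ in their organic and soot content. Particles that reach the alveoli are taken up by macrophages and touch the lining epithelium, and an injured lung answers with chemokines that draw in neutrophils and monocytes, with locally made acute phase proteins such as serum amyloid A and lipocalin 2, and with Timp1, an inhibitor of matrix-cutting proteases. The lung also runs a circadian clock, in which the Arntl and Clock proteins switch on Dbp, Nr1d1 and the Per and Cry genes, so that these transcripts swing over the day in lung and heart alike.

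Libraries were of similar depth, with 6.11 M to 8.05 M counts after flame and 6.09 M to 7.12 M after smolder, but 3 of them stood apart. PeatFlame replicates 1, 2 and 3 held 13746, 13159 and 12145 detected genes (symbols with 1 count or more), against 15048, 14859 and 15421 in replicates 4, 5 and 6 and 14710 to 15110 in the 6 smolder lungs. Their 20 most abundant genes took 11.9%, 12.9% and 14.9% of counts, against 8.09% to 9.68% in the other flame lungs and 8.74% to 10.8% after smolder. The SD of log2 CPM (counts scaled to library size) between libraries, as the median over genes, was 0.69 in the flame group, 0.38 in the smolder group and 0.41 among flame replicates 4 to 6 alone. A saline lung (replicate 2, 13196 detected genes) was as low, while the hearts of flame animals 1 to 3 had 13273 to 13753 detected genes against 13628 to 13853 in flame animals 4 to 6. Lung identity was as labelled in both groups: the club cell gene Scgb1a1 was at 29025 to 50625 CPM and the surfactant gene Sftpc at 3084 to 10056 CPM. Because 3 of 6 flame lungs have this property and no smolder lung has it, the main results below are given for all 12 lungs and again without flame replicates 1 to 3, a choice made after seeing the data.

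**Figure D1:**
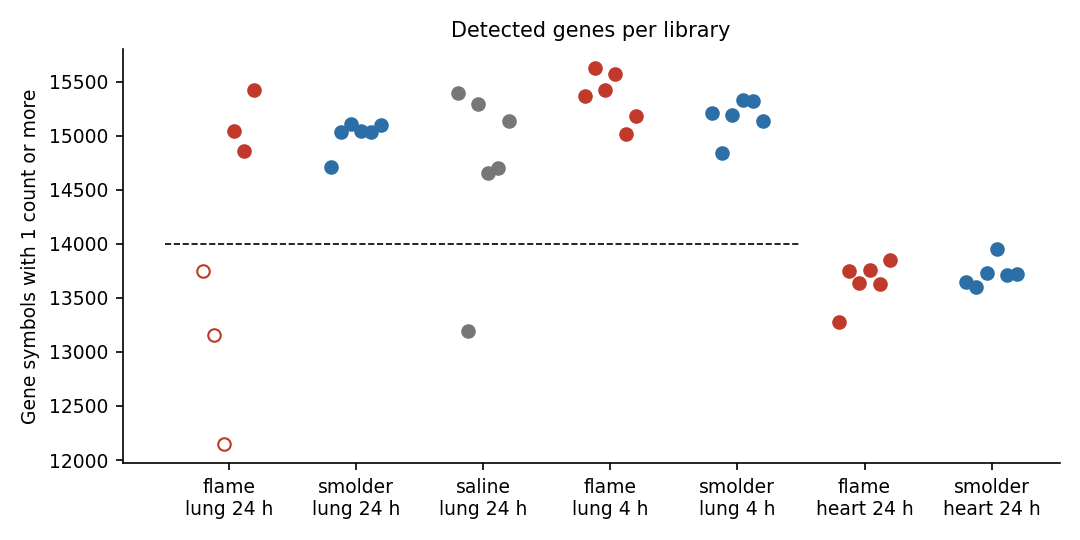
Gene symbols with 1 count or more in each library (vertical axis), 1 point per library, for the peat and saline groups of lung and heart. Open points are PeatFlame lung replicates 1 to 3 of 24 h, at 12145 to 13746, under the dashed line at 14000 drawn for lungs; the 6 smolder lungs lie at 14710 to 15110.

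No gene was called between the 2 burn phases in the fit of all 12 lungs (edgeR quasi-likelihood test with a plate term, adjusted p under 0.05): 0 of 13477 genes, a background of 0%. At an unadjusted p under 0.05 there were 2507 genes (18.6%), 1864 higher after flame (13.8%) and 643 lower (4.77%), and DESeq2 called 728 genes, 668 higher and 60 lower. The smallest adjusted p was 0.0878, shared by Ly6i, Timp1 and Tnfrsf9, all higher after flame. With detected genes entered as a covariate, an alternative planned for this comparison, 11 genes were called (0.0816%), all higher after flame. Without flame replicates 1 to 3, 14 of 13743 genes were called (0.102%), again all higher after flame. There smolder replicate 1 was the only library of plate 1, so the plate term took it up. The 24 h differences between burn phases given without flame replicates 1 to 3 therefore rest on smolder replicates 2 to 6. The CPM ranges printed beside them hold all 6 smolder lungs. The covariate fit and the fit without flame replicates 1 to 3 shared 10 called genes: Timp1, Ly6i, Tnfrsf9, Saa1, Saa3, Lcn2, Ccl2, Cfb, Slfn4 and Slc26a4. Detected genes varied mostly through the split within the flame group, which both fits act on, so this overlap is not independent evidence. Cxcl10 was called with the covariate alone, and Ccl7, Acod1, Il1rn and Gm6576 were called in the smaller set of lungs alone. In the fit of all 12 lungs the 14 genes were all above 0, and 13 of them had an unadjusted p under 0.05. The 14 were called from a part of these same lungs, so this is not independent evidence. Leaving out PeatFlame replicate 6, a library of many detected genes, gave 2211 calls, 1520 higher and 691 lower, among them 10 of the 14, so the count depended on single libraries.

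Genes whose 6 flame lungs all lay above all 6 smolder lungs numbered 17 (0.126% of genes tested), and 24 genes (0.178%) lay wholly below. Over so many genes some separate in this way by chance. The number expected was not computed, so a lack of overlap is a description here and not a test. Of the 17, Timp1, Ly6i, Tnfrsf9, Cxcl10, Acod1 and Slfn4 also lay above all 6 saline lungs. Of the other 11, Arg1 and Il4i1 are described below, and the rest were Bid, Dhx58, Eif2ak2, Hal, Atp11b, Camkk1, Cdc42, Rbm34 and 4931406C07Rik.

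Timp1, which blocks matrix metalloproteinases, stood at 60.3, 114.9, 169, 242, 475 and 231 CPM in flame replicates 1 to 6. Its 6 smolder lungs ranged from 24.0 to 44.2 CPM (median 32.4) and its saline lungs from 19.3 to 33.3 CPM. The 2 smoke groups did not overlap, and the lowest flame values came from the 3 libraries of few detected genes. The log2 difference, flame minus smolder, was 2.56 ± 0.39 (SE, adjusted p = 0.0878, edgeR), and it was 3.23 ± 0.26 (adjusted p = 0.000302) without those libraries. In fits that also held the saline lungs or all 70 lungs of 24 h, the adjusted p of Timp1 was 0.0091 and 7.21e-05 (edgeR). Timp1 was called in 15 of 26 alternative fits (edgeR, DESeq2 or limma), and in the others its adjusted p reached 0.362.

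Ly6i, a surface protein gene of the Ly6 family found on monocytes and macrophages, ranged from 5.69 to 39.8 CPM after flame (median 19.6) and from 0.445 to 3.24 CPM after smolder. Every flame lung was above every smolder lung, with a log2 difference of 3.30 ± 0.48. It passed without flame replicates 1 to 3 (3.41 ± 0.46, adjusted p = 0.0104, edgeR).

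Tnfrsf9, which encodes the costimulatory receptor 4-1BB of activated T and NK cells, read 29.4, 41.8, 106.5, 25.7, 34.5 and 8.14 CPM after flame. Smolder lungs held 0.730 to 4.59 CPM and saline lungs 2.06 to 7.31 CPM. Here the libraries of few detected genes were not the low ones, and the log2 difference was 3.97 ± 0.61 in all 12 lungs and 3.31 ± 0.51 (adjusted p = 0.029, edgeR) without them.

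Cxcl10, an interferon-induced chemokine for T cells, stood at 13.5, 18.7, 51.03, 9.55, 9.46 and 20.1 CPM after flame, against 1.48 to 4.16 CPM after smolder and 1.91 to 2.99 CPM in saline. Its groups did not overlap and its log2 difference was 2.82 ± 0.45 (adjusted p = 0.0989, edgeR). It was 2.06 ± 0.38 without flame replicates 1 to 3 (adjusted p = 0.0836) and 2.18 with the covariate (adjusted p = 0.0191). Of the 22 interferon-stimulated genes tested, such as Ifit1, Isg15 and Mx1, 3 had an unadjusted p under 0.05 and a higher level after flame and none a lower one, with a median log2 difference of 0.22 against -0.08 over all genes. That count is near the share of all genes higher at that p (13.8%). Without flame replicates 1 to 3 it was 3 of 22 (3.37% of all genes), with a median of 0.46.

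**Figure D2:**
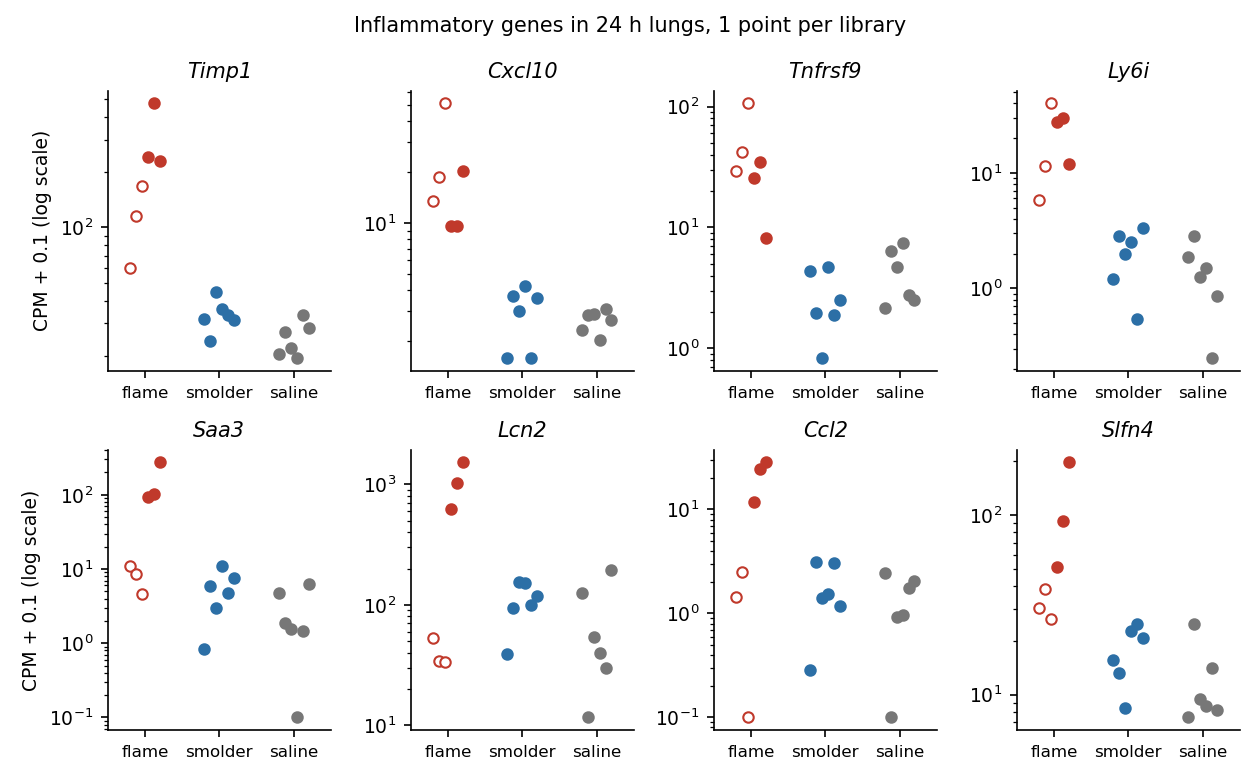
Level of 8 genes in the 24 h lungs of the flame, smolder and saline groups, 1 point per library, as CPM + 0.1 on a log axis that differs between panels; open points are flame replicates 1 to 3. In the top row every flame lung lies above every smolder lung; for Saa3, Lcn2 and Ccl2 in the bottom row the filled flame points lie above every smolder lung, and the open points lie within, just above or below the smolder range.

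The acute phase genes, whose proteins are secreted in inflammation, were higher after flame as a list. Of 20 listed genes 15 were tested; 9 had an unadjusted p under 0.05 and a higher level after flame and none a lower one (13.8% and 4.77% of all genes), with a median log2 difference of 1.34. Without flame replicates 1 to 3 there were 13 of 15 (background 3.37% higher and 1.59% lower), with a median of 1.31, and 3 were called: Saa1, Saa3 and Lcn2. The list was chosen with earlier results of these data known, so its direction is not independent evidence.

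Saa3, the serum amyloid A gene that macrophages and epithelium express locally, stood at 11, 8.44, 4.48, 93.4, 102.9 and 273 CPM in flame replicates 1 to 6 and at 0.744 to 10.9 CPM after smolder. Flame replicates 4 to 6 were above every smolder and saline lung, while replicates 1 to 3 lay within or just above the smolder range. The log2 difference was 3.90 ± 0.84 (adjusted p = 0.194, edgeR) in all 12 lungs, 4.46 with the covariate (adjusted p = 4.69e-06) and 4.62 ± 0.42 (adjusted p = 0.000382) without replicates 1 to 3.

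Lcn2, which encodes the iron-siderophore binding protein lipocalin 2, showed the same split more widely. Its flame lungs read 52.5, 34.3, 33.1, 623, 1019 and 1519.7 CPM, and its smolder lungs 39.1 to 154 CPM. Over all 12 lungs the log2 difference was 2.08 ± 0.80 (adjusted p = 0.217, edgeR), and it was 3.10 ± 0.27 (adjusted p = 0.000331) without replicates 1 to 3. Saa1 had no count in flame replicates 1 to 3, where 0 allows up to 3 counts (0.345 to 0.746 CPM across the 12 libraries, counting error only), and 12.9, 26.4 and 16.7 CPM in replicates 4 to 6, against 0 to 0.860 CPM after smolder. Saa2 is a near-identical copy of Saa1 and counts may be split between them; it stood at 2.40 to 3.09 CPM in replicates 4 to 6 and 0 to 0.744 CPM after smolder. Another pair of secreted proteins did not follow this split: Orm2, an orosomucoid, ranged from 7.40 to 28.6 CPM after flame and 0.741 to 9.30 CPM after smolder, and Hp, the hemoglobin-binding haptoglobin, was higher in flame replicates 1 to 3 (2628 to 3482 CPM) than in 4 to 6 (1674 to 2158 CPM). Neither passed in any of these 3 fits. Cfb, the complement factor B of the alternative pathway, was called with the covariate (adjusted p = 0.0223, edgeR) and without replicates 1 to 3 (1.68 ± 0.25, adjusted p = 0.0213), at 192 to 378 CPM there and 53.9 to 110 CPM after smolder. The terminal complement gene Hc was lower in all 12 lungs by its value, -1.72 ± 0.47 (adjusted p = 0.194), and at -1.12 ± 0.40 without replicates 1 to 3.

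Chemokine and cytokine genes gave 8 of 19 tested with an unadjusted p under 0.05 and a higher level after flame (13.8% of all genes), none lower, and a median log2 difference of 1.04. Without flame replicates 1 to 3 the count was 13 of 19 (3.37% of all genes) and the median 1.53, with Ccl2 and Ccl7 called. In all 12 lungs Ccl2 (2.76 ± 0.85), Ccl7 (2.17 ± 0.61) and Acod1 (2.98 ± 0.67) each had an adjusted p of 0.194 (edgeR), Cfb (1.03 ± 0.40) had 0.217 and Il1rn (1.66 ± 0.86) had 0.311. Ccl2, the main attractant of blood monocytes, read 1.33, 2.41, 0, 11.8, 24.7 and 28.2 CPM after flame and 0.186 to 3.005 CPM after smolder. Flame replicates 4 to 6 were above every smolder lung and replicates 1 to 3 were not, and the log2 difference without the latter was 3.46 ± 0.41 (adjusted p = 0.00308, edgeR). Its neighbour in function, Ccl7, read 9.55 to 20.1 CPM in replicates 4 to 6 and 0.573 to 3.91 CPM after smolder (3.11 ± 0.43, adjusted p = 0.0129). Of the neutrophil attractants, Cxcl1 was called in 4 of 26 alternative fits. In the fit of all 24 h lungs of 14000 or more detected genes it stood at 1.96 ± 0.43 (adjusted p = 0.048, edgeR). Without replicates 1 to 3 in the 2 peat groups, Cxcl1 (1.79 ± 0.33, adjusted p = 0.0878) and Cxcl2 (2.54 ± 0.44, adjusted p = 0.0557) did not pass. Il6 (1.95) and Tnf (1.53) also did not pass, with adjusted p = 0.754 and 0.172 (edgeR). Il1rn, the interleukin 1 receptor antagonist, passed there at 2.54 ± 0.42 (adjusted p = 0.0436), with 8.08 to 19.9 CPM in replicates 4 to 6 and 0 to 0.948 CPM in replicates 1 to 3.

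Among macrophage enzymes, Acod1, which makes itaconate, stood at 2.28 to 20.8 CPM after flame and 0 to 1.75 CPM after smolder without overlap, and was called without replicates 1 to 3 (3.6 ± 0.56, adjusted p = 0.0292, edgeR). Arg1, the arginine-cleaving arginase of alternatively activated macrophages, ranged from 13.5 to 80.5 CPM after flame and 8.76 to 13.4 CPM after smolder, with a log2 difference of 1.48 ± 0.39 (adjusted p = 0.194, edgeR), or 2.04 ± 0.37 (adjusted p = 0.0836) without replicates 1 to 3. Slfn4, a schlafen gene of myeloid cells, read 30.3, 38.4, 26.1, 51.1, 92.8 and 196 CPM after flame against 8.32 to 24.8 CPM after smolder. The 2 groups of Slfn4 met closely at 26.1 and 24.8 CPM, and the gene was called both with the covariate (2.44, adjusted p = 0.00429) and without replicates 1 to 3 (2.67 ± 0.41, adjusted p = 0.0274). Slc26a4, which encodes the epithelial anion exchanger pendrin, was called in the same 2 fits and stood at 18.8 to 26.4 CPM in replicates 4 to 6 and 0.148 to 4.28 CPM after smolder. Gm6576 was at 29.3 to 57.1 CPM in all flame lungs, but its smolder lungs held 65.7 CPM on plate 1 and 0.860 to 4.58 CPM on plate 2, so its call rests on the 5 smolder lungs of plate 2. The same animals split alike in heart, where all libraries were on plate 2: Gm6576 was at 121.9 CPM in smolder animal 1 and 0.337 to 1.23 CPM in the other 5.

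The promoters of the called genes were read to show what their starts share. Of the 14 named genes called with the covariate or without replicates 1 to 3, 10 matched RefSeq start sites (build GRCm38.p6), with 13 windows from 250 bases before to 50 bases after a start. The motif of AP-1, the Fos and Jun factor of stress and inflammation (TGANTCA on either strand), was found in 4 of these 13 windows and in 7.81% of 32851 windows of all genes. An NF-kB motif (GGGNN followed directly by TTTCC, on either strand, not overlapping the former in the stretches shown) was found in 3 of the 13 windows, of 2 genes, and in 1.63% of all windows; 2 of the 3 are overlapping windows of Il1rn that hold the same site. The upstream stretches that hold an AP-1 match are printed 5′ to 3′ on the gene's strand, with the motif letters in capitals. They lie at chr5:92348932-92348998 (minus strand) for Cxcl10, chr11:83175117-83175183 (plus strand) for Slfn4 and chr4:150927949-150927998 (plus strand) for the second start of Tnfrsf9, where the first set of capitals is the NF-kB match.
Cxcl10: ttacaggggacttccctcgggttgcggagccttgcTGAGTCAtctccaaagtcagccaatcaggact
Slfn4: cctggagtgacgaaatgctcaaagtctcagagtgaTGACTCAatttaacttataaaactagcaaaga
Tnfrsf9: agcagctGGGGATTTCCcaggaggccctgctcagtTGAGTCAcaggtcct
The fourth window was a start of Il1rn, and the windows of Timp1, Saa1, Saa3, Lcn2, Acod1 and Slc26a4 held neither set of letters. Only these exact letters were searched. Near variants, such as tgagtaa in the Timp1 window and ggggacttcc in the Cxcl10 stretch, were not counted. A match is a stretch of letters, not a measured binding site.

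Markers of immune cells were counted beside these genes, since whole lung was measured and fewer cells of a type cannot be told apart from less RNA per cell. Of 20 neutrophil genes 13 were tested, 3 were higher and 1 lower at an unadjusted p under 0.05 (13.8% and 4.77% of all genes), and the median log2 difference was 0.63. Without flame replicates 1 to 3 the count was 8 of 14 higher (3.37% of all genes) and none lower, with Mmp9, the neutrophil gelatinase, at 1.65 and the receptor Csf3r at 1.48, none called. Their summed level was 244 to 507 CPM after flame, 214 to 402 CPM after smolder and 225 to 362 CPM in saline. Among the granule and alarm genes of the list, S100a8 reached 6.76 CPM after flame and 8.60 CPM after smolder, and Elane, Mpo, Ngp and Mmp8 stayed at or under 1.20 CPM. These levels do not give the number of neutrophils, which these data do not measure.

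Alveolar macrophage genes were lower by value in all 12 lungs, with a median log2 difference of -0.75 over 18 tested, 1 of them lower (4.77% of all genes) and none higher at an unadjusted p under 0.05. Their summed level ranged from 310.5 to 1304 CPM after flame, 756 to 2232 CPM after smolder and 623 to 1786 CPM in saline. The 3 lowest flame sums were those of replicates 1 to 3 (310.5 to 360 CPM), where the scavenger receptor gene Marco and the lectin gene Siglecf had no count, against 0.573 to 4.45 CPM and 3.06 to 18.97 CPM after smolder. Without those libraries the median of the list was -0.19. Red cell genes, which track blood in the tissue, had a median of -1.02 over 7 genes and -0.46 without replicates 1 to 3, with sums of 201 to 2458 CPM after flame and 436 to 1573 CPM after smolder. Monocyte genes (median -0.02, and 0.38 without the 3 libraries), alveolar type 2 genes (0.04 and -0.03) and ciliated cell genes (0.01 and -0.02) were near the median of all genes, -0.08 and 0.01. Alveolar type 1 genes had medians of -0.10 and 0.36, but Ager, the receptor that marks these cells, split within the flame group, at 2508 to 3422 CPM in replicates 1 to 3 against 251 to 933 CPM in replicates 4 to 6 and 310 to 1534 CPM after smolder. The ribosomal gene Rps2 showed the same split, at 325 to 558 CPM and 43.8 to 139.3 CPM. The saline lung of few detected genes was the highest of its group for both, with 4269 CPM of Ager and 270.4 CPM of Rps2. The part of these markers in the differences above was not tested.

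**Figure D3:**
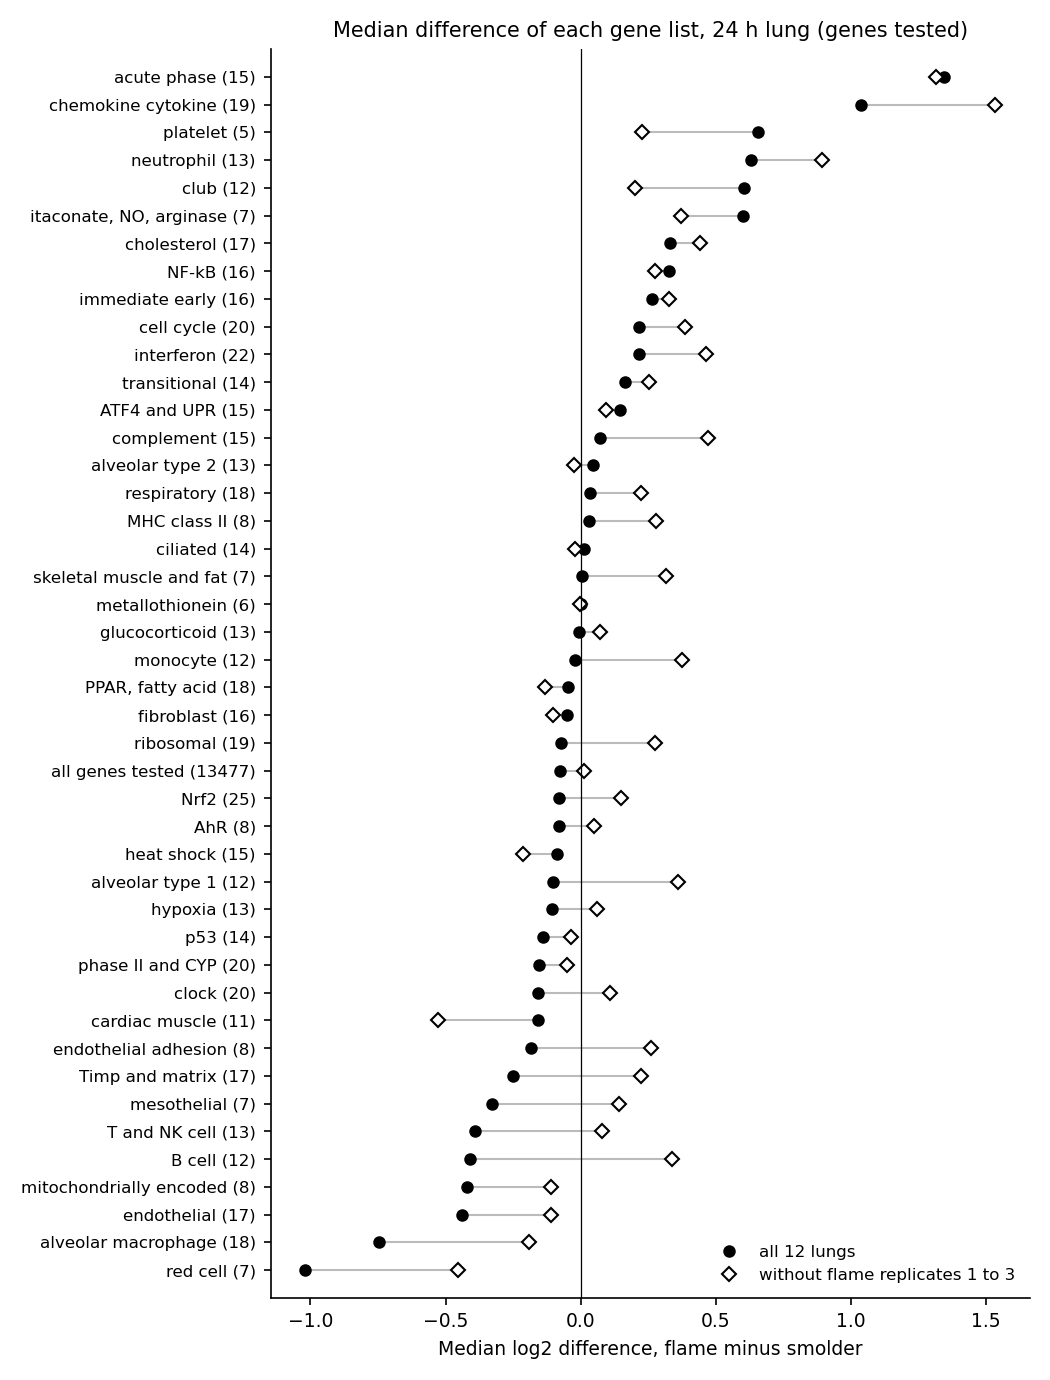
Median log2 difference, flame minus smolder, of each gene list with at least 5 tested genes (number tested in brackets) and of all genes tested. Filled circles are all 12 lungs and open diamonds leave out flame replicates 1 to 3; the acute phase and chemokine lists lie farthest to the right in both, at 1.34 and 1.04 and at 1.31 and 1.53.

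Genes of chemical stress were read next. Of 25 antioxidant genes driven by Nrf2, 5 were higher at an unadjusted p under 0.05 in all 12 lungs (13.8% of all genes) and 1 without replicates 1 to 3 (3.37%), with medians of -0.08 and 0.15. Nqo1, a quinone reductase, ranged from 2.74 to 15.02 CPM after flame and 3.91 to 11.9 CPM after smolder, and Hmox1, which breaks down heme, from 0 to 8.96 CPM and 1.61 to 7.31 CPM, so the groups overlapped. Cyp1a1, the classic target of the aryl hydrocarbon receptor that binds polycyclic aromatics, was at 0.948 to 8.21 CPM after flame, 3.15 to 7.25 CPM after smolder and 4.87 to 14.4 CPM in saline (-0.51 ± 0.50, adjusted p = 0.544, edgeR). The 8 genes of that receptor gave none higher and none lower at an unadjusted p under 0.05. Genes of cholesterol synthesis, which lung cells need for surfactant and membranes, gave 2 of 17 higher in all 12 lungs (13.8% of all genes) and 6 of 17 without replicates 1 to 3 (3.37% of all genes, median 0.44), none called. Sqle, the squalene epoxidase of that pathway, was at 481, 685 and 812 CPM in replicates 1 to 3, at 134.9 to 299 CPM in 4 to 6 and at 94.9 to 224 CPM after smolder.

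Clock genes lay on both sides of 0. Of 20 tested, 3 were higher (Dbp, Tef and Usp2) and 3 lower (Cry1, Arntl and Npas2) at an unadjusted p under 0.05, beside 13.8% and 4.77% of all genes. Without flame replicates 1 to 3 there were 5 higher and 4 lower (3.37% and 1.59% of all genes), and none was called in either fit. Dbp, an output transcription factor of the clock, read 134.5, 101.6, 155, 253, 280.2 and 313 CPM after flame and 103.6, 27.04, 37.7, 98.9, 15.4 and 43.96 CPM after smolder. The groups met at 101.6 and 103.6 CPM, and the log2 difference was 2.00 ± 0.47 (adjusted p = 0.194, edgeR), or 2.66 ± 0.44 (adjusted p = 0.0557) without the 3 libraries. Saline lungs spread more widely than either smoke group, from 22.9 to 399 CPM. Arntl, the activator at the core of the clock, went the other way, at 2.47 to 11.8 CPM after flame and 3.35 to 18.8 CPM after smolder (-1.18 ± 0.42, adjusted p = 0.200). Without the 3 libraries its flame lungs lay at 2.67 to 3.32 CPM, under all smolder lungs (-2.01 ± 0.37, adjusted p = 0.0836). The repressor Cry1 was at 4.48 to 24.8 CPM after flame and 12.1 to 44.9 CPM after smolder (-1.24 ± 0.38, adjusted p = 0.194, and -0.97 ± 0.32 without the 3 libraries). Nr1d1, which represses Arntl, split within the flame group, with 1.24 to 3.604 CPM in replicates 1 to 3 and 12.8 to 32.4 CPM in 4 to 6. Per1 stood at 7.43 to 15.9 CPM after flame and 3.58 to 21.9 CPM after smolder (0.03 ± 0.34), so that the groups overlapped wholly.

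In the hearts of the same animals no clock gene passed the test. Heart Dbp read 123.7, 113.6, 76.5, 366, 393 and 555 CPM in flame animals 1 to 6, 69.1 to 168 CPM in smolder animals and 55.8 to 219 CPM in saline animals. Animals 4 to 6 were above every other heart of these groups, and animals 1 to 3 lay within the smolder range. The hearts of animals 1 to 3 had 13273 to 13753 detected genes, against 13604 to 13949 in smolder hearts. The part of detected genes in this split was not tested. Over the 12 hearts the log2 difference was 1.24 ± 0.49 (adjusted p = 0.65, edgeR), and 0 of 10532 heart genes were called (0%), with 762 at an unadjusted p under 0.05 (7.24%) and 26 called by DESeq2. Heart Nr1d1 was at 37.7 to 49.6 CPM in flame animals 4 to 6 and 6.44 to 27.2 CPM in smolder animals. Timp1 in heart stood at 5.44 to 25.8 CPM and 5.78 to 29.5 CPM (0.02 ± 0.46), with the groups overlapping. In the titles, the animal numbers of the smolder group (77 to 82) all come before those of saline, and those of saline before those of flame, so burn phase and the place in that numbering cannot be told apart.

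**Figure D4:**
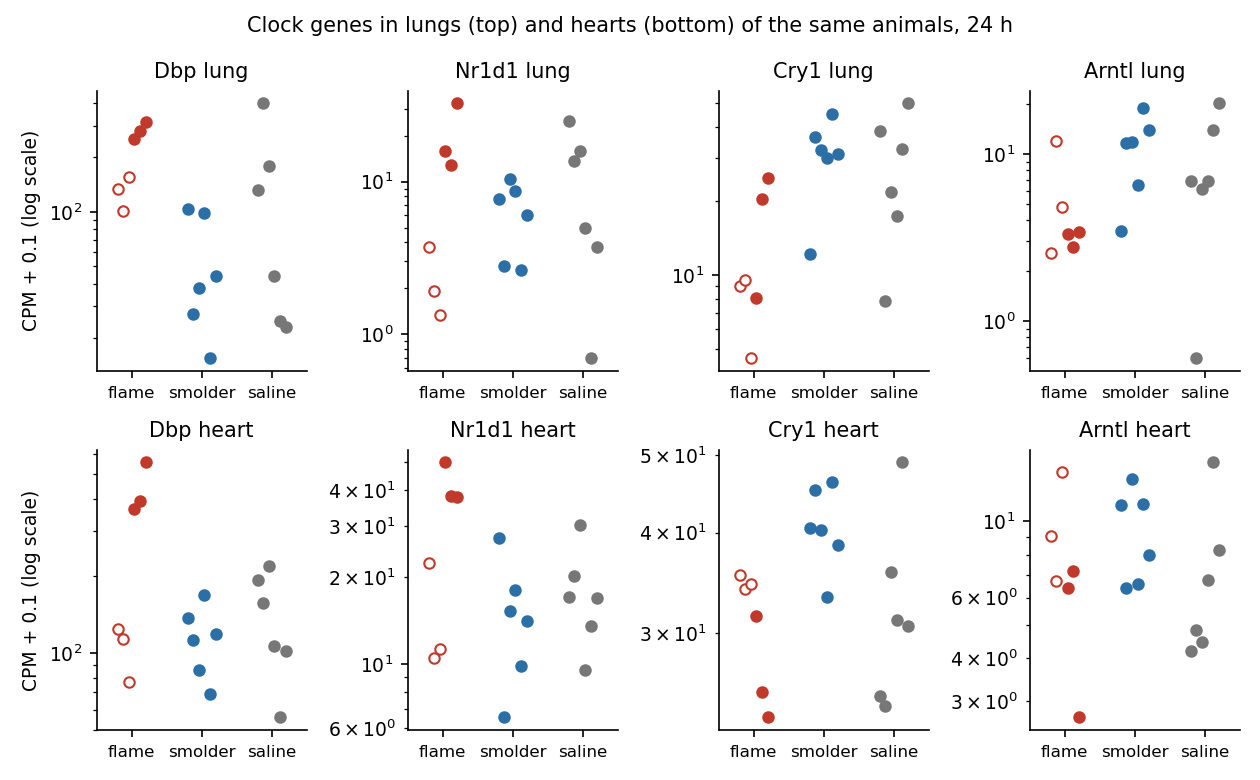
Levels of 4 clock genes in lungs (top) and hearts (bottom) of the same animals at 24 h, as CPM + 0.1 on log axes that differ between panels, 1 point per library; open points are flame animals 1 to 3. Dbp is high in the hearts and lungs of flame animals 4 to 6, at 253 to 313 CPM in lung and 366 to 555 CPM in heart.

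At an unadjusted p under 0.05 in all 12 lungs, fewer genes were lower after flame (643) than higher (1864). By sign alone, 6146 of the 13477 genes tested were above 0. No lower gene was called in the 3 fits named above. Among the 15 of smallest p, Sh2d1b1, an adaptor of NK cells, ranged from 3.03 to 22.9 CPM after flame and 27.2 to 73.4 CPM after smolder, without overlap (-2.02 ± 0.45, adjusted p = 0.194, edgeR). Drosha, the nuclease that cuts primary microRNAs, was at 8.53 to 31.1 CPM and 27.5 to 38.4 CPM (-1.17 ± 0.27). Without replicates 1 to 3 these differences were -1.34 ± 0.38 and -0.88 ± 0.30. Postn, the matricellular periostin, was at 150 to 486 CPM and 373 to 604 CPM (-0.99 ± 0.27), and Col12a1, a collagen chain, at 2.81 to 23.7 CPM and 20.8 to 44.9 CPM (-1.53 ± 0.42). Both were nearer 0 without the 3 libraries, at -0.60 and -0.94. The others, apart from Hc, were Tbc1d16, Rnd1, Pcolce2, Magi1, Peak1, Tm2d2, Rbms2, Rcan1, Kcne2 and Palld, with differences from -1.06 to -0.75, and all had an adjusted p of 0.194. On the higher side the 15 of smallest p also held Il4i1, Matk, Bid, Bpifb1, Rps2, Mfap4, Pglyrp1 and Ikbke. Mfap4, a microfibril protein gene, shows what the 3 libraries add, at 56.3, 61.9 and 161 CPM there, 3.78 to 22.8 CPM in replicates 4 to 6 and 2.58 to 14.5 CPM after smolder. Il4i1, an amino acid oxidase of myeloid cells, was at 23.04 to 62.1 CPM in all flame lungs and 11.3 to 22.6 CPM after smolder (1.42 ± 0.27), and it was almost as large, 1.52 ± 0.31, without them.

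At 4 h the same contrast of burn phases called other genes. In 12 other lungs, 20 of 12820 genes were called (0.156%), all higher after flame. They included Hspa1a, the inducible heat shock chaperone (3.11 ± 0.32, adjusted p = 0.00111, edgeR), Hmox1 (2.75 ± 0.35, adjusted p = 0.00317), the metallothionein Mt2 (2.29 ± 0.31, adjusted p = 0.00406) and the AP-1 subunit Fosl1. At 24 h Hspa1a was at -0.19 ± 0.69, Hmox1 at -0.17 ± 0.65 and Mt2 at 0.26 ± 0.27. Of the 18 genes tested in all 12 lungs of 24 h, 12 were above 0. Of these, 8 were higher at an unadjusted p under 0.05 (edgeR, 13.8% of all genes), none called. Gja1 was at 1.17 ± 0.37 there and 0.86 ± 0.12 at 4 h, but at 0.34 ± 0.21 at 24 h without flame replicates 1 to 3. Over the 20 genes the median log2 difference was 1.38 at 4 h; 18 of them were tested at 24 h, where it was 0.33, or 0.34 without flame replicates 1 to 3. The 14 genes called at 24 h without those replicates had a median of 3.27 there and, for the 13 tested at 4 h, 1.03, with all 13 above 0 and none called. Each set was chosen by its calls at 1 time, which by itself favours a smaller median at the other time. These medians therefore do not test a change between times. A test of the difference between the times, over all 4 peat groups of lung, called 1 of 14055 genes (0.00711%). That gene was Rnd1, whose protein acts on the actin cytoskeleton. Rnd1 stood at 75.6 to 164 CPM after flame and 42.03 to 72.5 CPM after smolder at 4 h, and at 30.4 to 46.7 CPM and 44.8 to 79.4 CPM at 24 h. The difference of its effects was -2.0 (adjusted p = 0.00269), and it was among the 2 genes called without replicates 1 to 3 (0.0139%). For Timp1 the 4 h difference was 0.94 ± 0.31 and the change from 4 h to 24 h did not pass (adjusted p = 0.525, edgeR), nor did that of Hmox1 (adjusted p = 0.312) or Mt2 (adjusted p = 0.216). The changes of Saa3 (adjusted p = 0.608, edgeR) and Acod1 (adjusted p = 0.61, edgeR) did not pass either. DESeq2 called 15 genes in this test, among them Hspa1a (-3.28, adjusted p = 0.0106), Mt2 (-1.99, adjusted p = 0.0106) and Hmox1 (-2.89, adjusted p = 0.0127).

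**Figure D5:**
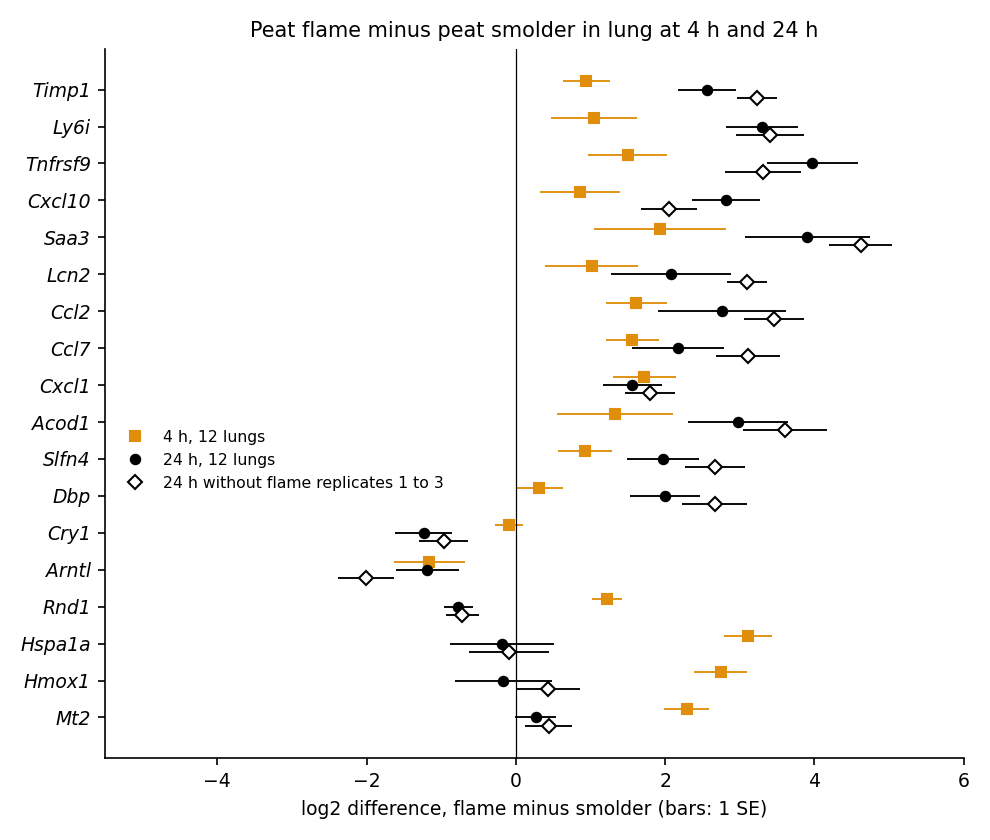
log2 difference, flame minus smolder, with 1 SE, for 18 genes at 4 h (squares), at 24 h in all 12 lungs (circles) and at 24 h without flame replicates 1 to 3 (diamonds). Hspa1a, Hmox1 and Mt2 lie at 2.29 to 3.11 at 4 h and near 0 at 24 h, while Timp1, Saa3 and Acod1 lie farther right at 24 h. Among the 18 genes shown, only Rnd1 passed the edgeR test of the difference between times.

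Peat was set against the other 4 fuels (red oak, pine, pine needles and eucalyptus) in a fit of all 70 lungs of 24 h. The phase effect of peat minus the mean phase effect of those fuels called 2 of 14069 genes (0.0142%). Timp1 was one, with a difference of 2.26 ± 0.42 (adjusted p = 0.021, edgeR) and a mean phase effect of 0.41 ± 0.19 in the other fuels. It was 2.86 (adjusted p = 0.0011) without the 12 of 70 lungs that had under 14000 detected genes. The other call was Dnaaf3, a dynein assembly gene of ciliated cells, at 2.93 ± 0.58 (adjusted p = 0.033), but its flame level was 17.3, 33.1 and 30.4 CPM in replicates 1 to 3 and 2.18 to 10.4 CPM in 4 to 6, and without the lungs of few detected genes it did not pass (0.99). Leaving out smolder replicate 1, 2, 4, 5 or 6 ended both calls, and leaving out flame replicate 6 gave 17 calls. Dbp did not pass this test (-0.93 ± 0.75, adjusted p = 0.509), and it was higher after flame over the other fuels too, with a mean phase effect of 2.78 ± 0.38 (adjusted p = 7.87e-06, background 0.0284% higher). For every fuel the smolder animals of 24 h come before the flame animals in the numbering of the titles. Burn phase and place in that numbering therefore cannot be told apart here either.

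Against saline, flame called 3 of 13389 genes (0.0224%), Timp1 (3.04), Cxcl10 (2.97) and Ly6i (3.88), and smolder called none (0%; 0.941% of genes at an unadjusted p under 0.05, and 0 by DESeq2). These comparisons share their saline lungs. Without the lungs of few detected genes flame called 9 of 13470 genes (0.0668%), Timp1, Ly6i, Saa1, Saa3, Lcn2, Ccl2, Ccl7, Slfn3 and Slfn4, and smolder again none. In the fit that kept all lungs, the smolder value was 0.45 for Timp1 and 0.82 for Saa3, both short of the threshold with adjusted p = 1 (edgeR). Without the lungs of few detected genes the values were 0.43 and 0.90, also short of it.

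The genes whose level followed Dbp, Timp1 and Saa3 most closely across the 12 lungs, after each group's mean of log2 CPM was removed, were described without a test; the 12 libraries share the spread in detected genes. For Dbp they were Myof (r = 0.83), Tsta3 (0.82), Nebl (0.77), Slc26a4 (0.76) and Rps6ka4 (0.75), and for Timp1 Ufc1 (0.97), Hist1h4d (0.93), Fgf2 (0.91), Ncf1 (0.90) and Fth1 (0.90). For Saa3 they were Dach1, Sod2, Zbtb38, Ipo7 and Ap3d1 (0.97 to 0.98). Removing group means leaves the split within the flame group in place: Saa3 itself had r = 0.91 with the number of detected genes over the same 12 libraries, Timp1 0.50 and Dbp 0.37.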

How the data were processed

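Whole lungs and hearts were profiled with a targeted probe assay (TempO-Seq), per the labels' protocols, which also name a 3' kit; 1 library was 1 animal. The authors deposited raw counts per probe, made with Bowtie, and named DESeq2, per the submitters' processing notes; the sources used here give no versions and no genome build. Probe rows were summed per symbol (30146 rows, 21450 symbols). Libraries held 6.09 M to 8.05 M counts. The main test was edgeR 4.0.16 (R 4.3.3) with TMM scaling, filterByExpr, a robust quasi-likelihood fit of group and plate, and Benjamini-Hochberg adjustment at 0.05. Replicate 1 of each smoke group was on plate 1 and the others on plate 2. Levels are CPM scaled by TMM over all lungs, or all hearts. DESeq2 1.42.0 and limma 3.58.1 served as alternatives. Only the main fit was run on simulated counts, which did not model the libraries of few detected genes. The outcome is not reported here, and the other fits were not run on such counts. The text names the 15 genes of smallest p in each direction, genes called in any comparison, a set chosen by name, and genes of 45 lists. The members and lists were chosen with earlier results of these data known, and p-values measure the spread between these animals.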

Additional observations from a re-analysis of the deposited data

Results flagged for a closer look

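Among the values of groups of 6 libraries, 8 (7.69%) held a library far from the other 5 of its group; chance gives about 5%. In smolder replicate 1, the plate 1 library, Gm6576 was at 65.7 CPM (others 0.860 to 4.58), Rps2 at 151 CPM (others 19.6 to 41.6), Rcan1 at 15.6 CPM (others 26.04 to 33.1) and Lcn2 at 39.1 CPM (others 94.7 to 154), and the number of detected genes was 14710 (others 15036 to 15110). In other libraries, Acod1 was at 0 CPM in smolder replicate 3 (others 1.19 to 1.75), Slc26a4 at 0.148 CPM in smolder replicate 5 (others 2.02 to 4.28) and Drosha at 31.1 CPM in flame replicate 5 (others 8.53 to 13.9). For Gm6576 the heart of the same animal stood apart too, at 121.9 CPM against 0.337 to 1.23 CPM, with all hearts on plate 2. For the other values the part of the plate was not tested.

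The phase effect differed between times for Rnd1, by -2.0 (24 h minus 4 h, log2). It differed between peat and the mean of the other 4 fuels for Timp1, by 2.26, and for Dnaaf3, by 2.93; Dnaaf3 was at 0.99 and did not pass without the lungs under 14000 detected genes, and leaving out smolder replicate 1, 2, 4, 5 or 6 ended both calls.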

How the results depend on the processing

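The count of genes called between the burn phases at 24 h was 0 in the fit of 12 lungs, and also 0 with DESeq2's size factors, with no plate term and with probe rows tested alone. It was 728 by the DESeq2 test, 3 with no filter, 2 on plate 2 alone, 1 with all 24 h lungs, 9 with all lungs, 3 with the saline lungs, 11 with detected genes as a covariate and 7 with the 24 h lungs of 13000 or more detected genes. Added after seeing the data, leaving out lungs under 14000 detected genes gave 14, the same among all 24 h lungs gave 12, and limma voom with quality weights gave 226. Leaving out 1 library gave 0 to 2211. The difference between times (1) was 15 by DESeq2, 2 with all lungs and 2 without lungs under 14000 detected genes, with 1 to 2 on leaving out 1 library. The difference from other fuels (2) was 10 by DESeq2, 1 with no plate term, 13 with all lungs and 4 with 13000 or more detected genes, with 0 to 17 on leaving out 1 library. Flame against saline (3) was 12 by DESeq2, 10 with all lungs and 9 without lungs under 14000 detected genes, with 2 to 5 on leaving out 1 library. Smolder against saline (0) was 1 with all lungs and 0 to 0 on leaving out 1 library. The heart count (0) was 26 by DESeq2 and 2 with no filter, with 0 to 2 on leaving out 1 library. The cause of these shifts was not tested.

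Signs turned for 5 genes near 0. Cyp1a1 was 0.57 by probe row. Nqo1 was 0.15 with the covariate, 0.15 without lungs under 14000 detected genes and 0.28 so among all 24 h lungs. Hmox1 was 0.44, 0.43 and 0.58 there, 0.15 at 13000 or more, 0.48 by voom and -0.51 to 0.12 on leaving out 1 library. Per1 was -0.006282 with no plate term, -0.070 with 24 h lungs, -0.040 with all lungs, -0.00345 with saline, -0.090 at 13000 or more, -0.12 at 14000 or more among 24 h lungs, -0.000551 by voom and -0.17 to 0.16 on leaving out 1 library. S100a8 was 0.052 on plate 2, 0.040 with all lungs, 0.57 with the covariate, 0.27 at 13000 or more, 0.64 without lungs under 14000, 0.76 so among 24 h lungs, 0.29 by voom and -0.49 to 0.65 on leaving out 1 library. Over the named genes and alternatives, 1098 values kept direction and side of the threshold, 166 came past it and 34 turned sign. No paired analysis was possible because the titles give each animal its own number and replicate numbers follow accession order. Depth was similar in both groups.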
